A study of Mus musculus with 2 samples.

Results

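The interleukin 1 family was taken as 10 genes named in the array annotation, namely the cytokines Il1a, Il1b, Il18, Il33, Il1f6, Il1f8 and Il1f9, the receptor antagonists Il1rn and Il1f5, and the decoy receptor Il1r2. Of these 10 genes, 9 had a probe, out of 17871 genes on the array, and together they had 11 of its 25697 probes. By symbol, 8 members were matched, and Il33, which the array lists under the clone name 9230117N10Rik, was matched through its Entrez number. No probe was found for Il1f8, which therefore has no signal here and enters only the gene order and the promoter windows below. Il1f5, Il1f6, Il1f8 and Il1f9 are older names of Il36rn, Il36a, Il36b and Il36g.

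The RNA came from skin keratinocytes of mice aged 3 months that were fed a diet low in calcium. The control mice carried floxed Vdr alleles (VDR fl/fl) and no Cre was named for them. Their littermates, labelled knockout, carried the same alleles and a Cre recombinase driven by the promoter of keratin 14 (K14), which is active in basal epidermal cells and the outer hair follicle, so cells of other lineages keep the gene. Keratinocytes were prepared from the epidermis after it had been freed from the dermis with 0.25% trypsin. Each group was represented by 1 Illumina bead array with RNA pooled from 3 mice, so no difference below has a replicate check and none was tested.

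The floxed gene itself, Vdr (the vitamin D receptor), had normalized intensities of 2626 for the control pool and 2928 for the pool labelled knockout by its brightest probe. Its other probes, with 1624 against 1872 and 286.2 against 382.3, were also higher for the pool labelled knockout. The level of Vdr therefore did not show a loss and does not check the label. Where on the transcript the probes lie was not analysed here, and every direction below rests on the labels as given. The pools also differed in sex-linked transcripts, with 994.1 against 1943 for Xist and 924.8 against 258.1 for the Y-linked Ddx3y. Of 15 keratinocyte markers 14 were detected on both arrays, and 0 were 2-fold apart, against 2.39% of all detected genes. Dmkn and Krt10 reached 38624 and 32223 on the control array. In all, 9547 genes were detected on at least 1 array.

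Interleukin 1 family cytokines are alarm signals of barrier tissues. Agonists bind a receptor that pairs with an accessory protein and signals through the adaptor MyD88 to NF-kB and MAP kinases, while antagonists occupy the receptor without signalling and decoy receptors bind the ligand without passing on a signal. IL-1 beta and IL-18 are made as inactive precursors that caspase-1 cleaves, whereas IL-1 alpha and IL-33 are active as released from damaged cells. Keratinocytes are a known source of IL-1 alpha, of its antagonist and of IL-36 cytokines, which are prominent in psoriatic skin.

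The genes lie in a few groups in the mouse genome, by the RefSeq gene order of GRCm38.p6. On chromosome 2, Il1f8, Il1f9, Il1f6, Il1f5, Il1f10 and Il1rn follow one another with 0 other protein-coding genes between them, and Il1a and Il1b are direct neighbours elsewhere on that chromosome. Il1r2 stands on chromosome 1 beside the receptor genes Il1r1, Il1rl2, Il1rl1, Il18r1 and Il18rap, also with 0 protein-coding genes between them. Il18 is on chromosome 9 and Il33 on chromosome 19. Neighbouring members did not share 1 pattern of signal, since Il1f9 and Il1f6 were not detected on either array and Il1f5 and Il1rn were detected on both.

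RefSeq promoter windows of GRCm38.p6, cut to the 250 bases before each annotated start, were held for 9 of the 10 members, in 13 windows. The 4 windows printed are those of the members with the largest upward differences on the array labelled knockout, Il1a and Il1f5, and of the main agonist and antagonist pair, Il1b and Il1rn. They lie at chr2:129309973-129310222 (minus strand), chr2:129371140-129371389 (minus strand), chr2:24336610-24336859 (plus strand) and chr2:24276704-24276953 (plus strand). Capitals mark matches, on either strand, to the AP-1 motif TGANTCA or to the TATA-box letters TATAAA, and no matches overlapped.
Il1a: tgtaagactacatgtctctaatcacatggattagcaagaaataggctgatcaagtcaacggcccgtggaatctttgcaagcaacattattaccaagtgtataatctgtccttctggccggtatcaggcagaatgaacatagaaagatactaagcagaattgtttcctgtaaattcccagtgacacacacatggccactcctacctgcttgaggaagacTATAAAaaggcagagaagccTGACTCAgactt
Il1b: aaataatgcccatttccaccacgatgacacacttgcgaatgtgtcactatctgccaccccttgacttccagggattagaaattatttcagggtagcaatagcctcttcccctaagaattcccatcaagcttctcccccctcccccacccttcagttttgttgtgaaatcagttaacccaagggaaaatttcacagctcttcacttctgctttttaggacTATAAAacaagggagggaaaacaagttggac
Il1rn, the most upstream of 3 windows: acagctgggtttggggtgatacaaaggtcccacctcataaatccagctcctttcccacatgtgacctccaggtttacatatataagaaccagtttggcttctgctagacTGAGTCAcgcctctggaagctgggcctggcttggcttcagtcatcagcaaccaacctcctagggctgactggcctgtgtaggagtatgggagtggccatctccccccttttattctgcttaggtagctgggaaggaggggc
Il1f5, the more upstream of 2 windows: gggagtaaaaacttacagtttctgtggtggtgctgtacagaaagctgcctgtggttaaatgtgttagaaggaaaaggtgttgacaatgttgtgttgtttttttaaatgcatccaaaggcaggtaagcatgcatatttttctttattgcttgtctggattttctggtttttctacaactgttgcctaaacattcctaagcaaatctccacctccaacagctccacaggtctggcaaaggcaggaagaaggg

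Il1a has TATAAA beginning 32 bases before the start and an AP-1 match beginning 12 bases before it. Il1b has TATAAA beginning 31 bases before the start, and the printed Il1rn window has an AP-1 match beginning 141 bases before it. The AP-1 letters were found in 3 of the 13 member windows and in 6.73% of 32536 distinct promoter windows of the same length, and TATAAA in 5 of the 13 and in 12.3% of all. The 3 with AP-1 letters belong to Il1a, Il1rn and Il1f8, the last of which has no probe. The NF-kB consensus and the direct-repeat consensus of the vitamin D receptor, each searched on both strands, were in 0 of the 13 member windows and in 3.92% and 0.04% of all windows. A match is a run of letters and not a measured binding site, and no match says only that the letters are not in this window.

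Detection was judged by the rank of the signal, because the deposited detection p-values are out of register with the signals (Spearman's rho across probes of -0.0053 for control and -0.0073 for the other array). They were therefore dealt out again within each array, the smallest to the brightest probe, and a probe was called detected at p under 0.05, which on the deposited normalized scale began at 178.5 for the control pool and 176.6 for the other. By this rule 7 of the 9 measured members were detected, all 7 of them on both arrays. The undetected pair was Il1f6 and Il1f9. Differences are given as log2 of knockout over control after removal of the background, and the ratio of the deposited normalized intensities, which keep the background and so understate differences at low signal, is given beside them.

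**Figure D1:**
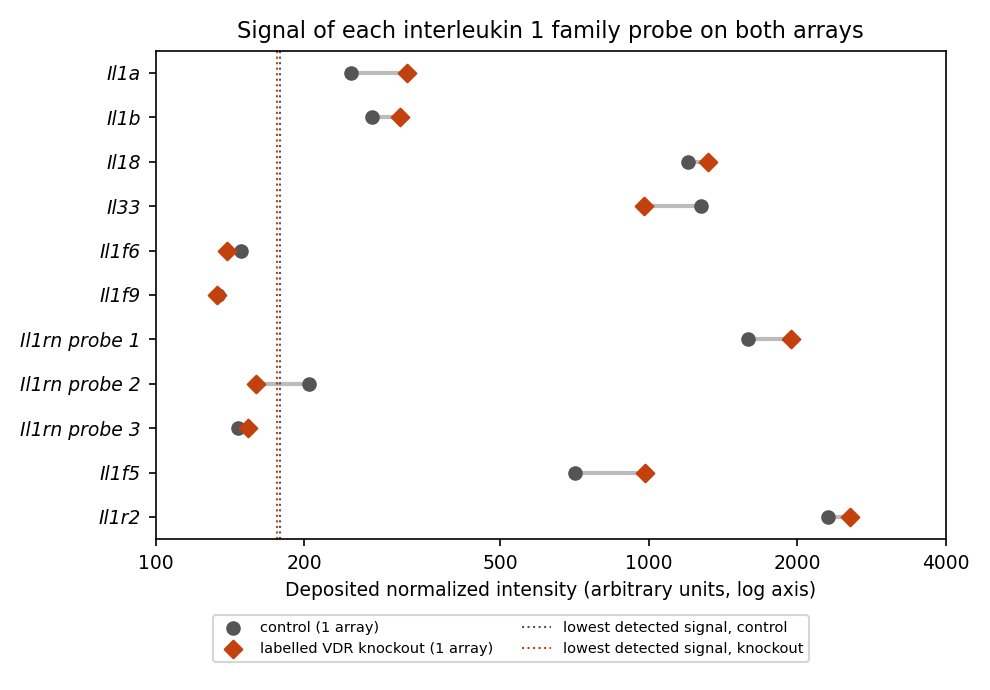
Deposited normalized intensity (horizontal log axis, arbitrary units) of each of the 11 probes of the family for the control (grey circles) and the array labelled knockout (orange diamonds), with dotted lines at the lowest detected signal of each array. Il1f6, Il1f9 and the third Il1rn probe lie left of both lines, and Il33 is the only gene detected on both arrays whose probe is dimmer on the array labelled knockout.

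None of the 7 detected members was 2-fold apart between the arrays, against 2.39% of all 9547 detected genes. Higher signals on the array labelled knockout were found for 6 members and a lower one for 1, Il33, where 48.7% of all detected genes were higher. The median difference over the 7 was 0.33, beside a median of 0.00 over all detected genes, and the differences ran from -0.47 to 0.76. In the deposited normalized values the same 6 were higher (48.8% of all detected genes were), the median was 0.19, and 0 of 7 were 2-fold apart against 0.461% of all detected genes.

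Among the agonists, Il1a, which encodes the IL-1 alpha that keratinocytes hold ready for release, had the largest difference of the family after background removal with the offset of 16 used here. Its normalized intensity was 249.1 for the control pool and 323.7 for the pool labelled knockout, a ratio of 1.30. After background removal the difference was 0.76 (1.69-fold higher). The probe was detected on both arrays but dim, ranking in the brightest 35.5% and 30.2% of all probes, and the size of the difference depended on the background step more than for any other detected member. Its rank did too, since Il1f5 differed more in the deposited normalized values (0.47 against 0.38), without background correction (0.52 against 0.34) and with an offset of 50 (0.59 against 0.57).

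Il1b encodes IL-1 beta, the form that needs cleavage by caspase-1. Its intensity was 274.1 for the control pool and 312.3 for the other, a ratio of 1.14 and a background-corrected difference of 0.37 (1.29-fold higher). Langerhans cells, the dendritic cells of the epidermis, are another known source of this cytokine. Beside it, 9 of 10 detected markers of Langerhans and dendritic cells were higher on the array labelled knockout, where 48.7% of all detected genes were. At least 2-fold higher were 2 of the 10, Cd207 and H2-Ab1, against 1.28% of all detected genes. In the deposited normalized values the ratios of Cd207 and H2-Ab1 were 1.62 and 1.94, both within 2-fold. The 10 had a median of 0.65 and summed intensities of 6258 and 9843. The brightest were Cd74 (1960 against 3344) and H2-Ab1 (1534 against 2975), both of class II antigen presentation. Itgax, Ly75 and the class II gene H2-Aa (157.4 against 169.4) were not detected on either array. The part of these cells in the Il1b signal was not tested, and in such bulk RNA a change in the number of cells of a type and a change in RNA per cell cannot be told apart.

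Il18 encodes the cytokine that induces interferon gamma in lymphocytes, and its mRNA was readily measured in these keratinocytes. Its intensity was 1202 for the control pool and 1317 for the other, within the brightest 12.2% and 11.3% of probes. The ratio was 1.10 and the corrected difference 0.16 (1.12-fold higher), so the arrays were close for this gene.

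Il33 encodes a nuclear cytokine that barrier cells release on damage, and it was the single detected member that was lower on the array labelled knockout. Its intensity was 1273 for the control pool and 978.8 for the other, a ratio of 0.769. The corrected difference was -0.47 (1.39-fold lower). Fibroblasts are also known to make IL-33. Of 6 detected fibroblast markers 3 were at least 2-fold lower on the array labelled knockout, against 1.11% of all detected genes. These were Dcn, Col6a1 and, as a bound of 2.02-fold, Serpinf1. At least 2-fold higher was 1 of the 6, Mmp2, against 1.28%. Serpinf1 and Col1a1 were detected on the control array alone, so they could not come out higher. The median over the 6, with these bounds, was -0.69. In the deposited normalized values the ratios of Dcn, Col6a1, Serpinf1 and Mmp2 were 0.520, 0.527, 0.745 and 1.96, all within 2-fold. Summed over the 6 markers the intensity was 5162 for the control pool and 6674 for the other, since the brightest, the gelatinase gene Mmp2, was higher (2510 against 4923), Fbln1 had 855.9 and 713.7, and Col1a2, Col3a1, Lum and Pdgfra were not detected. The part of these cells in the Il33 signal was not tested.

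The IL-36 agonists gave no signal above background. Il1f6, the gene of IL-36 alpha, had intensities of 149.3 and 139.4, and Il1f9, the gene of IL-36 gamma, had 133.9 and 133.0. Both lie below the lowest detected signal of either array, Il1f9 among the dimmest probes (96.3% of the way down the ranking for control and 97.2% for the other array). A difference between the arrays was therefore not detectable for these genes, and a low-level transcript or a poorly binding probe cannot be told apart from absence.

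Both antagonists were brighter than background on both arrays by their brightest probes. Il1f5 encodes the IL-36 receptor antagonist and had the largest difference among the members with bright probes. Its intensity was 708.8 for the control pool and 981.1 for the pool labelled knockout, a ratio of 1.38 and a corrected difference of 0.63 (1.54-fold higher). This antagonist was detected while the probes of IL-36 alpha and gamma, which it opposes, were at background on both arrays.

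Il1rn encodes the IL-1 receptor antagonist, and its probes disagreed. The brightest probe had 1586 for the control pool and 1942 for the pool labelled knockout, a ratio of 1.22 and a corrected difference of 0.33 (1.26-fold higher). The second probe had 204.4 and 159.6, detected on the control array alone, and was at least 1.42-fold lower on the other. The third had 147.1 and 154.1 and was not detected on either array. With the mean of both detected probes in place of the brightest one, the difference of Il1rn was -0.09, so its direction depends on the probe. All 3 probes carry the same RefSeq accession in the annotation, RefSeq holds 3 separate starts for the gene, and which transcripts each probe reads was not analysed here.

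Il1r2 encodes the decoy receptor that binds IL-1 without signalling, and its probe ranked in the brightest 6.61% and 5.97% of probes. Its intensity was 2312 and 2553, a ratio of 1.10 and a corrected difference of 0.15 (1.11-fold higher).

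The spread of differences depended on the signal, so each member was set beside genes of like signal, as a description of these arrays and not a test. Detected genes were split into 5 groups of equal size by mean signal, in which the SD of the log2 differences was 0.39 in the dimmest, 0.53 in the next, and 0.39, 0.30 and 0.23 in the 3 brighter ones. In its own group of 1909 genes, 3.61% had a difference as large as that of Il1f5 in either direction, and 7.60% one as large as that of Il33. For Il1a, in a dimmer group of 1909 genes, the share was 10.5%. It was 17.7% for Il1rn, 37.7% for Il1b, 38.0% for Il1r2 and 46.8% for Il18. By this measure Il1f5 and Il33 lay toward the edge of their groups and Il1b, Il18 and Il1r2 well inside.

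**Figure D2:**
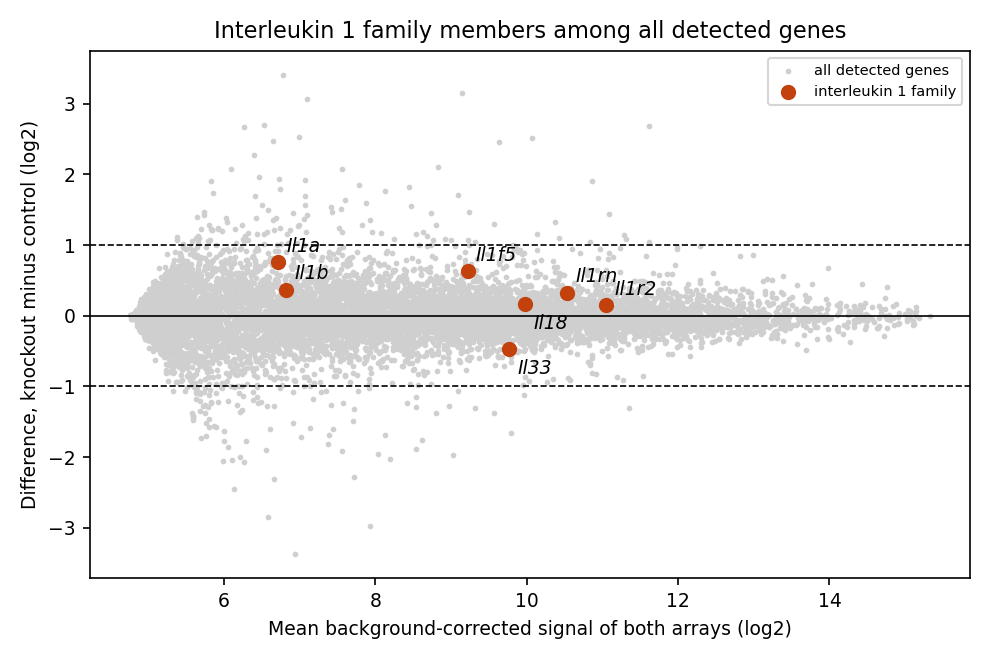
Difference between the arrays (vertical axis, knockout minus control, log2) against mean background-corrected signal (horizontal axis, log2) for 9547 detected genes (grey) and the 7 detected members (orange), with dashed lines at 2-fold and genes detected on 1 array alone drawn at their bound. All 7 members lie between the dashed lines, with Il1a highest at 0.76 and Il33 lowest at -0.47.

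Receptors and binding proteins of the family were dim and mixed in direction. Of 10 such genes on the array (Il1f10, the cytokine gene beside Il1rn that encodes IL-38, is counted among them), 7 were detected. Of the 7, 0 were 2-fold apart, against 2.39% of all detected genes. With 3 higher and 4 lower, where 48.7% of all detected genes were higher, the median was -0.25. For a list of this size these counts do not set it apart from all genes. Il1f10 had 225.1 for the control pool and 189.5 for the other, a difference of -0.60. Il18bp, the soluble trap of IL-18, had 243.6 and 287.1, a difference of 0.50, and Il18r1, a chain of the IL-18 receptor, had 295.3 and 333.9, a difference of 0.34. The signalling IL-1 receptor Il1r1 had 198.4 for the control pool and 156.4 for the other, where its signal was too close to background to be called, and was at least 1.33-fold lower there. Its other probe was not detected. The IL-33 receptor Il1rl1 and the IL-18 receptor chain Il18rap were not detected on either array.

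Among genes of cytokine processing, Casp1 and Casp4 stood just under 2-fold higher on the array labelled knockout. Of 20 genes of cytokine processing and the inflammasome on the array, 10 were detected and 0 reached 2-fold, against 2.39% of all detected genes. With 5 higher and 5 lower, where 48.7% of all detected genes were higher, the median was -0.03. Gsdmd, detected on the array labelled knockout alone, and Nlrp10, on the control array alone, had their directions fixed by the filter. Casp1, which encodes the protease that matures IL-1 beta and IL-18, had 3274 for the control pool and 6074 for the pool labelled knockout, a ratio of 1.86 and a difference of 0.94 (1.92-fold higher). Il1b and Il18, the genes of its substrates, had differences of 0.37 and 0.16 on the same arrays.

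Casp4, the gene of the inflammatory caspase known in mice as caspase-11, had 899.5 and 1558, a difference of 0.96 (1.95-fold higher). Its second probe had 349.1 and 588.3, a difference of 1.21, and the third was not detected. The mean of both detected probes was past 2-fold, which gives 1 gene of the list at 2-fold in place of 0. Whether probes of the related genes Casp1 and Casp4 bind each other's transcripts was not tested.

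Txnip, which encodes a thioredoxin-binding protein reported to act on the NLRP3 inflammasome, had 5833 and 10122, a difference of 0.85. S100a13, which takes part in the release of IL-1 alpha, was lower, with 667.1 and 490.5, a difference of -0.67. The sensor genes Nlrp3, Aim2 and Nlrp1a were not detected, and the adaptor gene Pycard had 1803 and 1552, a difference of -0.25. Pycard and these sensors lie outside the rule for named genes and were chosen after their values were seen.

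Signalling components downstream of the receptors were compared in the same way. Of 28 such genes 27 were detected on both arrays, and 0 were 2-fold apart, against 2.39% of all detected genes. For a list of this size a count of 0 does not set it apart from all genes. Of the 27, 17 were higher and 10 lower, where 48.7% of all detected genes were higher, and the median was 0.04. Irak4, the first kinase recruited to the receptor complex, had 211.2 and 249.5 on its brightest probe, a difference of 0.58, but its second probe (185.2 and 170.0) was detected on the control array alone, with a bound of -0.16. The IRAK family members Irak3, an inhibitor of the complex, and Irak2, a positive regulator, had differences of 0.54 and 0.46, the former from 763.6 and 1017 and the latter from 538.5 and 667.9. Tab3, an adaptor of the kinase TAK1, had 955.6 and 1193, a difference of 0.40. The shared adaptor Myd88 had 6685 and 6677, a difference of 0.00, and is named after its value was seen.

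Genes known to respond to IL-1 or IL-36 in keratinocytes were the pathway list with members past 2-fold. Of 27 on the array 14 were detected, 4 were at least 2-fold higher, against 1.28% of all detected genes, and 0 were 2-fold lower, against 1.11%. In all, 12 were higher and 2 lower, where 48.7% of all detected genes were higher, with a median of 0.52. The 4 at 2-fold were S100a8, the calprotectin subunit gene (389.1 against 1955, a difference of 3.15), its partner S100a9 (194.3 against 369.3, 1.96), the envelope gene Sprr2d (1084 against 2420, 1.33) and the siderophore-binding gene Lcn2, which was detected on the array labelled knockout alone and at least 2.76-fold higher there (160.5 against 275.6). In the deposited normalized values 2 of the list, S100a8 and Sprr2d, were at least 2-fold higher, against 0.283% of all detected genes, and 0 were 2-fold lower, against 0.178%. The list was chosen with earlier results of these data known, so its count beside that of all genes is a description and not a test. Lcn2 and Ccl2 were detected on the array labelled knockout alone and Csf3 on the control array alone. The filter thus fixed their directions in the count of 12 higher and 2 lower. With detection required on both arrays, which leaves out these genes, 3 of 11 were at least 2-fold apart. Over all genes that setting gave 102 higher and 72 lower of 8399. The 4 genes at 2-fold also respond to other signals, and Sprr2d has near-identical neighbours whose transcripts its probe may read.

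Several cytokine and chemokine genes of this list were at background. Il6, Cxcl2, Csf2, Ccl20 and the prostaglandin synthase gene Ptgs2 were not detected on either array, while Cxcl1, a neutrophil chemokine, had 1176 and 1620, a difference of 0.55. These 6 genes were chosen after their values were seen. Neutrophils carry S100a8 and S100a9 in abundance, and the neutrophil genes Mpo, Ngp, Camp, Ltf, Retnlg, Csf3r and Cxcr2 were not detected on either array. Ly6g, a neutrophil marker outside the rule for named genes, had no probe. The part of neutrophils in the S100a8 and S100a9 signals was not tested. Of the 18 macrophage, neutrophil and mast cell markers on the array 5 were detected, and 0 were 2-fold apart, against 2.39% of all detected genes. The summed intensities of the 5 were 1622 and 1458, led by Ly6c1 (900.3 against 610.0) and Lyz1 (215.2 against 270.2).

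**Figure D3:**
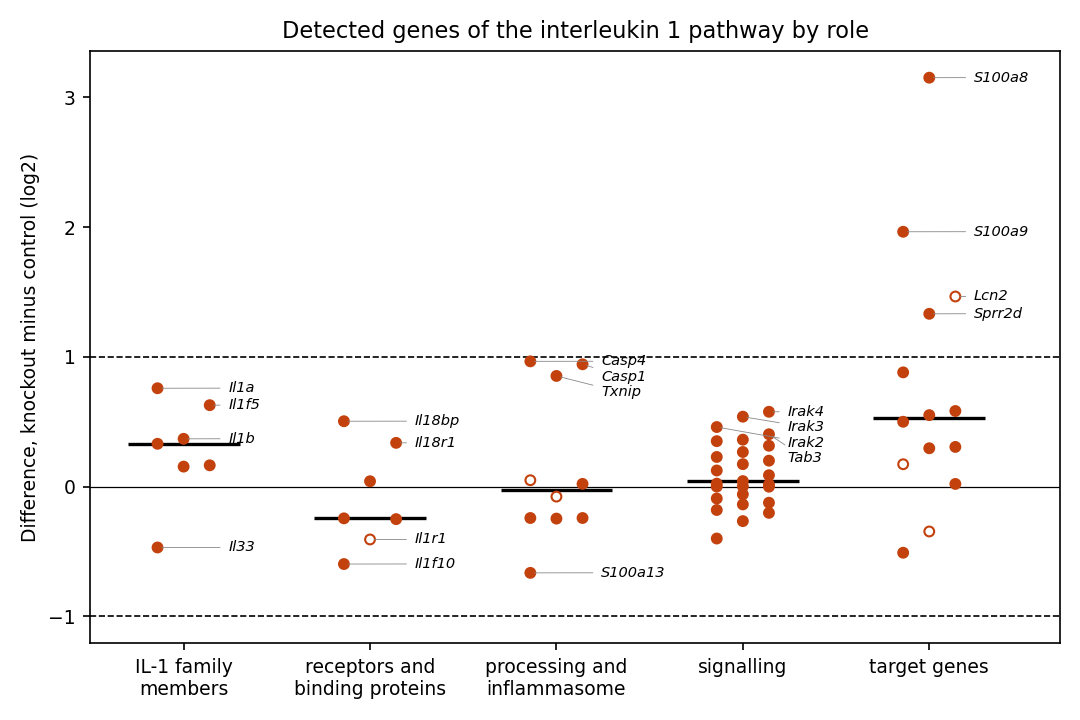
Difference between the arrays (vertical axis, knockout minus control, log2) of each detected gene of the family and of the 4 lists of its pathway, with filled points for genes detected on both arrays, open points for bounds of genes detected on 1 array, black bars at the list medians and dashed lines at 2-fold. Points above the upper dashed line occur in the list of target genes, where S100a8 reaches 3.15, and Casp4 and Casp1 stand just under it at 0.96 and 0.94.

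Markers of the remaining cell types that could be in the preparation, T cells and melanocytes, were also compared between the pools. T cell markers had 6 of 10 detected, with a median of -0.16 and 0 at 2-fold, against 2.39% of all detected genes. Their summed intensities were 2821 and 2667, and Thy1 (1425 against 1416) and Cd3g (493.3 against 335.3) were the brightest. Melanocyte markers had 5 of 7 detected, all 5 lower on the array labelled knockout, where 48.7% of all detected genes were higher. Of the 5, 1 was detected on both arrays, Dct. The others passed the filter through the control array alone and could not come out higher, so their direction is no result. At least 2-fold lower were 2 of the 5, Dct and, as a bound of 2.77-fold, Ednrb, against 1.11% of all detected genes. In the deposited normalized values the ratios of Dct and Ednrb were 0.294 and 0.533, the latter within 2-fold. The summed intensities of the 5 were 1533 and 756.2. They were led by Dct (619.5 against 182.4) and Ednrb (272.8 against 145.4, the latter value not detected). The part of these cells in the values of the family was not tested.

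**Figure D4:**
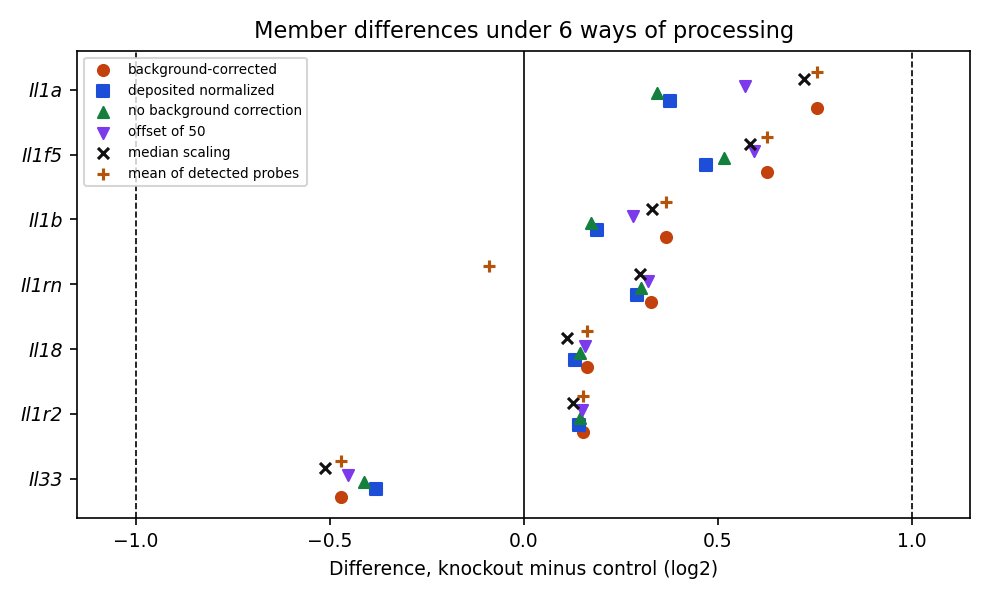
Difference between the arrays (horizontal axis, knockout minus control, log2) of each of the 7 detected members under 6 ways of processing, with dashed lines at 2-fold. No value reaches a dashed line, Il33 is below 0 in all 6, and Il1rn crosses 0 where the mean of its detected probes is taken.

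Across the 8 alternative settings the differences of Il1a lay between 0.34 and 0.76, of Il1f5 between 0.47 and 0.63, and of Il1b between 0.17 and 0.37. Those of Il18 lay between 0.11 and 0.16, of Il1r2 between 0.13 and 0.15 and of Il33 between -0.51 and -0.38. These 6 members kept their direction in all 8 settings, with Il1rn the exception. Each of the 6 has a single probe, detected on both arrays. The settings of the detection filter and the mean of detected probes therefore could not change their values. Their direction could have changed only in the settings of background, offset, scaling and deposited values.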

How the data were processed

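RNA from keratinocytes was measured on 2 Illumina bead arrays, 1 per group, each with RNA pooled from 3 mice. The deposited non-normalized intensities are average bead signals per the file headers, linear in scale, from GenomeStudio 2011.1 per the submitters' processing notes. The lowest was 116, which leaves background in every value. Once sorted, the deposited normalized intensities of both arrays are equal to within 0.3 units, and their normalization method is not given in the sources used here. Identical numbers fill the deposited value table. The deposited detection p-values were out of register with the signals and were reassigned by signal rank.

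Background was removed with normexp in limma 3.58.1 (R 4.3.3) through the reassigned p-values (offset 16), followed by log2 and quantile normalization. These steps were tried on simulated intensities whose detection p-values were in register, so the reassignment of the p-values was not tested. A gene was represented by its brightest probe among those detected at p under 0.05 on at least 1 array. A gene detected on 1 array alone is given as a bound, its bright value over the higher of its dim value and the lowest detected value of that array. Symbols were updated through the GRCm38.p6 gene table (25376 of 25697 probes matched). Named genes are every member probe, the 4 detected genes with the largest difference of each pathway list and the 2 brightest of each marker list, besides those said to be chosen later and the undetected receptor, Langerhans cell, fibroblast and neutrophil genes, which were also named after their values were seen. Other list genes are named because they reached 2-fold or were detected on 1 array alone, also after their values were seen. Members and lists were chosen with earlier results of these data known. With 1 array per group no test was made and their number limits the precision, and no gene can be matched to a member by its pattern across samples.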

Additional observations from a re-analysis of the deposited data

How the results depend on the processing

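No paired analysis was possible because each group has 1 array, and no array could be left out. In all 8 alternatives (background left in, the deposited normalized intensities, an offset of 50, median scaling, detection on both arrays, no detection filter, detection p under 0.01, and the mean of detected probes) the count of members at 2-fold was 0, as were those of receptors and signalling genes. The median member difference was 0.33 and became 0.17 without background correction, 0.19 in the deposited normalized intensities, 0.16 with no detection filter (9 members) and 0.16 with the mean of detected probes. The 4 target genes at 2-fold became 2 in the deposited normalized intensities and 2 without background correction, both of which keep the background. They became 3 with an offset of 50 and 3, of 11 detected, with detection on both arrays. The processing list had 0 genes at 2-fold and 1 with the mean of detected probes. Over all genes the counts of 122 higher and 106 lower became 27 and 17 in the deposited values, 28 and 19 without background correction, 65 and 47 with an offset of 50, and 108 and 122 with median scaling, which moved the median of all genes to -0.04. Il1rn turned from 0.33 to -0.09 with the mean of detected probes.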
